A study of Homo sapiens with 3 samples.

Results

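The guides against glycosylphosphatidylinositol (GPI) anchor synthesis made up 230 of the 30197 guides of a CRISPR library aimed at metabolic genes, 10 guides against each of 23 of its 2978 genes. They were taken by gene symbol alone, as every guide whose target is PIG followed by 1 letter (PIGR aside), begins with PGAP, or is GPAA1 or GPLD1. This gave 21 PIG genes, PGAP1 and GPLD1, with no guide against GPAA1 in the library, and the rule itself uses no measured value. The library was carried by MIA PaCa-2, an established human pancreatic ductal adenocarcinoma cell line, in a screen for metabolic genes whose loss alters growth when the lipid kinase PIKfyve is inhibited. There was 1 sequenced library for each of 3 groups: the initial population (day 0), cells kept in the vehicle DMSO for 14 days, and cells kept in the PIKfyve inhibitor apilimod for 14 days. The sample label gives apilimod at 200 nM and the methods give another concentration, so the dose is uncertain. With 1 library per group there is no replicate check on any difference, every test here compares these libraries and not the conditions, and drug, culture and library cannot be told apart.

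GPI anchors are glycolipids that tether many cell-surface proteins to the outer leaflet of the plasma membrane. They are built on phosphatidylinositol in the endoplasmic reticulum: N-acetylglucosamine is added and deacetylated, the inositol is acylated, mannoses and ethanolamine phosphates are attached in turn, and a transamidase joins the finished lipid to the C terminus of a protein. The lipid and glycan are then remodelled on the way to the cell surface. Cultured mammalian cells can often grow without the pathway, and somatic loss of PIGA in blood stem cells underlies paroxysmal nocturnal haemoglobinuria.

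The 3 libraries held 24695476 (initial), 26276517 (DMSO) and 25599416 (apilimod) counts. The GPI anchor guides took 0.733% of the initial library (exact 95% interval 0.729 to 0.736), 0.719% of the DMSO library (0.716 to 0.723) and 0.728% of the apilimod library (0.725 to 0.731). As the reads carry no molecular identifiers, such intervals cover counting error only. The median GPI anchor guide had 651.5, 679 and 601.5 counts in the initial, DMSO and apilimod libraries. Of the 230 guides, 217 had at least 100 initial counts and were kept, and every one of the 23 genes retained between 8 and 10 guides. The 13 guides left out, from 9 genes, had 0 to 97 initial counts.

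A guide's change is the log2 ratio of its share of the library at 14 days to its share at day 0, and a gene's score is the mean over its kept guides, given with the SD among those guides. Guides against 1 gene share a target, so this SD measures how much guides differ and not how much repeated screens would. Guides against intergenic sites served as the reference: the median of 487 such control guides was 0.14 in DMSO and 0.22 in apilimod. Scores are printed without subtracting these medians and are to be read against them. A gene was called lower or higher where its guides ranked apart from the control guides (two-sided exact rank-sum test, Benjamini-Hochberg adjustment over 2969 genes, threshold 0.05).

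In the DMSO arm, 5 of the 23 GPI anchor genes were lower than control guides (PIGC, PIGF, PIGQ, PIGS and PIGW) and 0 were higher. Among all genes tested, 18.9% were called lower and 0.842% higher, so the share of GPI anchor genes called lower, 21.7%, was near that of the library as a whole. The changes were small. The GPI anchor genes scored from -0.90 to 0.22, with a median of -0.17 against -0.03 over all 2969 genes. PIGQ alone stood at least 1 log2 unit below the control median, a distance reached by 6.53% of all genes. A further 4 genes (PIGH, PIGL, PIGY and PGAP1) had an unadjusted p under 0.05 without passing adjustment, which made 9 of 23 at that level, 39.1%, against 29.7% of all genes.

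In the apilimod arm, 10 of the 23 genes were lower than control guides (PIGC, PIGH, PIGL, PIGM, PIGO, PIGQ, PIGS, PIGT, PIGW and PIGY) and 0 were higher. The background was again high, with 29.0% of all genes called lower and 0.236% higher, against 43.5% of the GPI anchor genes called lower. Scores ran from -0.89 to 0.34 with a median of -0.12, against -0.04 over all genes. PIGQ was again the 1 gene that lay 1 log2 unit or more below the control median, where 9.77% of all genes lay. The DMSO and apilimod arms share the initial library, so a gene called in both has not been seen in 2 independent comparisons.

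These calls depend on the control guides, which stood above most gene-targeting guides in both arms. With all gene-targeting guides in place of the control guides, 1 GPI anchor gene was lower in DMSO (PIGQ, exact rank-sum test, adjusted p = 0.0426) and 0 were called in apilimod. Single guides gave a like picture: 24 of 217 GPI anchor guides (11.1%) fell below the central 95% of control guides in DMSO, against 13.5% of all gene-targeting guides. In apilimod these were 29 of 217 (13.4%) against 14.5%. No kept GPI anchor guide was lost to 0 counts in either library at 14 days.

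The first step, transfer of N-acetylglucosamine to phosphatidylinositol, is carried out by a complex in which PIGA is the catalytic subunit and PIGC, PIGH, PIGP, PIGQ and PIGY are partners. Of these 6 subunits, 2 were lower in DMSO and 4 in apilimod, beside 18.9% and 29.0% of all genes. The subunits spanned nearly the full range of the pathway, from PIGQ at the bottom to PIGA and PIGP at the top. Neither the catalytic subunit nor PIGP was called in either arm, and the difference between subunits was not tested.

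PIGQ (chromosome 16, 566995 to 584109, plus strand, GRCh38) helps to hold the complex together, and it had the lowest score of the 23 genes in both arms. Its 9 kept guides summed to 7473 counts in the initial library, 5874 in DMSO and 5544 in apilimod. The score was -0.90 ± 0.89 (SD, n = 9 guides) in DMSO (8 of 9 guides under the median control guide, exact rank-sum test, adjusted p = 0.00036) and -0.89 ± 1.15 in apilimod (8 of 9 guides, exact rank-sum test, adjusted p = 0.00191). In rank this was place 188 of 2969 genes from the bottom in DMSO and place 254 in apilimod.

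The PIGQ guides did not move as a block. Guide sgPIGQ_4 went from 331 initial counts to 109 in DMSO and 47 in apilimod, and sgPIGQ_6 from 933 to 441 and 362, so both were well down at 14 days in each library. Guide sgPIGQ_3 went from 135 to 29 in DMSO but stood at 153 in apilimod, and sgPIGQ_2 from 430 to 126 and 345. The reverse held for sgPIGQ_10, with 580 initial counts, 454 in DMSO and 100 in apilimod. Guide sgPIGQ_8 was above its initial count in both libraries (640, 928 and 827 counts). Leaving out any single guide kept the score between -1.07 and -0.73 in DMSO and between -1.04 and -0.64 in apilimod.

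PIGC (chromosome 1, 172370189 to 172444086, minus strand), a membrane subunit of the same complex, had guide sums of 5604, 4200 and 4871 counts in the initial, DMSO and apilimod libraries. Its scores were -0.47 ± 0.43 in DMSO (9 of 10 guides under the median control guide, exact rank-sum test, adjusted p = 0.000233) and -0.44 ± 0.68 in apilimod (8 of 10, exact rank-sum test, adjusted p = 0.00928). The near-equal scores came from different guides. In DMSO the decline was spread over most guides, with sgPIGC_6 going from 1285 to 861 counts and sgPIGC_10 from 964 to 627. In apilimod it lay mainly in sgPIGC_2 (137 to 51), sgPIGC_5 (151 to 61) and sgPIGC_9 (303 to 130), while sgPIGC_10 was at 1045. With a minimum of 300 initial counts, PIGC was at -0.28 in apilimod and no longer called (exact rank-sum test, adjusted p = 0.101).

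PIGH (chromosome 14, 67581955 to 67600286, minus strand), the cytosolic partner of PIGA, was called lower in apilimod, with a score of -0.64 ± 1.32 (8 of 10 guides, exact rank-sum test, adjusted p = 0.0186), and not in DMSO, with -0.27 ± 0.72 (exact rank-sum test, adjusted p = 0.106). The apilimod score leaned on 2 guides of modest depth: sgPIGH_7, with 145 initial counts, 164 in DMSO and 10 in apilimod, and sgPIGH_9, with 292, 72 and 80. Without sgPIGH_7 the score was -0.29. With a minimum of 300 initial counts, which removes both guides, PIGH was at -0.09 in apilimod and no longer called (exact rank-sum test, adjusted p = 0.167).

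PIGY (chromosome 4, 88520998 to 88523776, minus strand), the smallest subunit, scored -0.27 ± 0.63 in DMSO (exact rank-sum test, adjusted p = 0.152, not called) and -0.32 ± 0.70 in apilimod (8 of 10 guides, exact rank-sum test, adjusted p = 0.0181). Guide sgPIGY_8 had 600, 248 and 315 counts and sgPIGY_9 had 1345, 865 and 706, lower in both libraries at 14 days. By contrast, sgPIGY_6 had 980, 1400 and 455, up in one library and down in the other. The gene lies within PYURF on the same strand, a gene that is not among the targets listed, and any part of PYURF in these values was not tested.

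PIGA (chromosome X, 15319452 to 15335554, minus strand), which catalyses the transfer, had guide sums of 8928, 11607 and 10751 counts. It scored 0.22 ± 0.41 in DMSO, the highest of the 23, and 0.15 ± 0.39 in apilimod. The shift of its guides against the control guides was estimated at 0.08 in DMSO (95% interval -0.15 to 0.31) and -0.08 in apilimod (-0.41 to 0.22), so a fall of 1 log2 unit lay outside both. These intervals cover the spread of guides within these libraries and not that of repeated screens. PIGP (chromosome 21, 37062846 to 37073170, minus strand), a small membrane subunit, was similar at 0.16 ± 0.25 and 0.34 ± 0.33, the latter the highest score in apilimod.

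The next enzymes act on the lipid made by this complex. PIGL (chromosome 17, 16217191 to 16351797, plus strand) removes the acetyl group from N-acetylglucosamine. Its guide sums were 8351, 7644 and 6619 counts, and its score was -0.17 ± 0.50 in DMSO (exact rank-sum test, adjusted p = 0.0967) and -0.45 ± 0.69 in apilimod, where it was called lower (7 of 10 guides, exact rank-sum test, adjusted p = 0.0133). Among its guides, sgPIGL_6 had 794, 638 and 370 counts, sgPIGL_7 had 580, 672 and 311, and sgPIGL_10 had 733, 1206 and 1137. The guides thus parted in both directions, with 3 of 10 above the control median in apilimod.

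PIGW (chromosome 17, 36534987 to 36539310, plus strand), which acylates the inositol ring, was called in both arms. Its scores were -0.32 ± 0.40 in DMSO (8 of 10 guides, exact rank-sum test, adjusted p = 0.00633) and -0.17 ± 0.53 in apilimod (8 of 10 guides, exact rank-sum test, adjusted p = 0.0396). Only sgPIGW_10 fell below the central 95% of control guides in either arm, with 385, 197 and 194 counts. The other guides stayed within that range, some with small shifts, as in sgPIGW_7 with 1471, 1142 and 1265 counts, and some on opposite sides of their initial count, as in sgPIGW_3 with 284, 176 and 500 and sgPIGW_9 with 667, 826 and 433.

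Mannoses are added by PIGM with its stabilising partner PIGX, then by PIGV, PIGB and, for a side branch, PIGZ. Of these 5 genes, 0 were called in DMSO, with 0 at an unadjusted p under 0.05, and 1, PIGM, was lower in apilimod. Over all genes, 18.9% were lower in DMSO, where 29.7% had an unadjusted p under 0.05, and 29.0% were lower in apilimod. PIGM (chromosome 1, 160024953 to 160031990, minus strand) had sums over 8 kept guides of 4491, 4588 and 3933 counts. Its scores were -0.14 ± 0.45 in DMSO (exact rank-sum test, adjusted p = 0.259) and -0.41 ± 0.49 in apilimod (7 of 8 guides, exact rank-sum test, adjusted p = 0.00483).

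The PIGM call in apilimod rested on the count minimum. The guides left out were sgPIGM_6, with 79, 12 and 333 counts, and sgPIGM_1, with 36, 7 and 66, and both stood above their day 0 count in the apilimod library and well under it in the parallel DMSO library. With a minimum of 30 counts, which restores both, the apilimod score was -0.04 and the call ended (exact rank-sum test, adjusted p = 0.115). Under the same minimum the DMSO score fell to -0.62, just short of a call (exact rank-sum test, adjusted p = 0.0512). PIGM overlaps KCNJ10, a potassium channel gene on the same strand that is itself among the library's targets.

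PIGX (chromosome 3, 196639775 to 196736007, plus strand) showed how far 1 guide could carry a gene. Its score in DMSO was -0.36 ± 1.34, made by sgPIGX_1, which had 126 initial counts, 9 in DMSO and 154 in apilimod. Without that guide the score was 0.07, and with it the gene was not called (exact rank-sum test, adjusted p = 0.67). In apilimod PIGX scored 0.15 ± 0.42.

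PIGB (chromosome 15, 55318960 to 55355648, plus strand), which adds the third mannose, had a wide spread among guides, at -0.22 ± 0.95 in DMSO and -0.10 ± 0.88 in apilimod. Guide sgPIGB_4 had 934, 321 and 332 counts and sgPIGB_1 had 356, 168 and 138, both below the central 95% of control guides in each arm. Guides sgPIGB_2 (812, 1258 and 1274 counts) and sgPIGB_8 (1015, 1735 and 1034) were not lower, and the gene was called in neither arm. PIGV (chromosome 1, 26787054 to 26800659, plus strand) scored -0.08 ± 0.47 and 0.08 ± 0.63, and PIGZ (chromosome 3, 196946356 to 196969060, minus strand) 0.05 ± 0.30 and 0.23 ± 0.32, in DMSO and apilimod.

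Ethanolamine phosphate is attached to the mannoses by PIGN, PIGO and PIGG, the last of these working with PIGF, which also partners PIGO. Of these 4 genes, PIGF was called lower in DMSO and PIGO in apilimod, beside 18.9% and 29.0% of all genes. PIGF (chromosome 2, 46580937 to 46617055, minus strand) had sums over 9 guides of 8361, 7406 and 7658 counts, with scores of -0.21 ± 0.54 in DMSO (7 of 9 guides, exact rank-sum test, adjusted p = 0.0294) and -0.17 ± 0.55 in apilimod (exact rank-sum test, adjusted p = 0.0712, not called). Its left-out guide sgPIGF_3 had 70, 21 and 6 counts, and with it restored PIGF was called in apilimod too, at -0.50 (exact rank-sum test, adjusted p = 0.0266).

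PIGO (chromosome 9, 35087237 to 35096619, minus strand), which adds the ethanolamine phosphate through which the protein is later joined, had guide sums of 7393, 7692 and 6464 counts. It scored -0.21 ± 0.63 in DMSO (exact rank-sum test, adjusted p = 0.28) and -0.48 ± 1.13 in apilimod (8 of 10 guides, exact rank-sum test, adjusted p = 0.0458). Guide sgPIGO_2 had 197, 93 and 20 counts, and without it the apilimod score was -0.17. The PIGO call in apilimod ended with a minimum of 300 initial counts (exact rank-sum test, adjusted p = 0.0531) and with control guides of at least 200 initial counts as the null (exact rank-sum test, adjusted p = 0.0563). Guide sgPIGO_10, with 599, 289 and 255 counts, was below the central 95% of control guides in both arms. PIGN (chromosome 18, 61905255 to 62187118, minus strand) scored 0.03 ± 0.30 and -0.08 ± 0.54, and PIGG (chromosome 4, 499210 to 540200, plus strand) 0.09 ± 0.42 and -0.08 ± 0.54, with neither called.

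The transamidase cleaves the client protein and attaches the anchor. PIGK is its catalytic subunit, and PIGS, PIGT and PIGU are partners. Of 5 transamidase genes looked for, only these were in the library. Of these 4 genes, PIGS was lower in DMSO and PIGS and PIGT were lower in apilimod, with 18.9% and 29.0% of all genes lower in those arms. PIGK (chromosome 1, 77088989 to 77219430, minus strand) scored 0.07 ± 0.72 in DMSO and 0.27 ± 0.49 in apilimod. Neither PIGK nor its partner PIGU was called in either arm.

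PIGS (chromosome 17, 28553383 to 28571794, minus strand) had the smallest SD among guides of the 10 genes called in apilimod. Its 9 guides summed to 8124, 6871 and 5692 counts, and the score was -0.51 ± 0.57 in DMSO (8 of 9 guides, exact rank-sum test, adjusted p = 0.00116) and -0.57 ± 0.33 in apilimod (9 of 9 guides, exact rank-sum test, adjusted p = 1.98e-05). Guide sgPIGS_2 had 600, 198 and 362 counts, sgPIGS_5 had 990, 594 and 579, and sgPIGS_1 had 746, 905 and 396. Even so, in apilimod only sgPIGS_1 was below the central 95% of control guides, so the call came from many small shifts in one direction.

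PIGT (chromosome 20, 45416084 to 45456934, plus strand) had guide sums of 7084, 7037 and 6542 counts. It scored -0.19 ± 0.72 in DMSO (exact rank-sum test, adjusted p = 0.486) and -0.30 ± 0.83 in apilimod (8 of 10 guides, exact rank-sum test, adjusted p = 0.0295). Guides sgPIGT_2 (314, 142 and 141 counts), sgPIGT_4 (283, 185 and 127) and sgPIGT_3 (235, 328 and 107) carried the apilimod score, against sgPIGT_6 (170, 209 and 414) and sgPIGT_7 (424, 761 and 789). The apilimod call ended with a minimum of 300 initial counts, at -0.26 (exact rank-sum test, adjusted p = 0.0542). PIGU (chromosome 20, 34560542 to 34698790, minus strand) scored 0.01 ± 0.44 and 0.19 ± 0.57 and was called in neither arm.

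The remaining pair act after synthesis. Of 6 remodelling genes looked for, PGAP1 alone was in the library. PGAP1 (chromosome 2, 196833004 to 196927796, minus strand), which removes the inositol acyl chain once the anchor is on a protein, scored -0.11 ± 0.40 in DMSO (exact rank-sum test, adjusted p = 0.152) and -0.12 ± 0.87 in apilimod, the latter pulled down by sgPGAP1_7 with 260, 178 and 53 counts. GPLD1 (chromosome 6, 24424565 to 24495205, minus strand), a secreted phospholipase that cleaves GPI anchors, scored 0.22 ± 0.40 and 0.24 ± 0.39. Its left-out guide sgGPLD1_6 had 86 and 39 counts in the initial and DMSO libraries and 0 in apilimod. With that guide restored the apilimod score of GPLD1 was -0.44, and the gene was still not called.

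The direct comparison of the 14-day libraries asked which knockouts fared differently under apilimod. For the test, each arm was first scaled on 27 nucleotide synthesis genes, whose median score was -1.46 in DMSO and -1.71 in apilimod, while the log2 ratios given here are unscaled. The mean log2 ratio of apilimod to DMSO was between -0.37 (PIGH) and 0.51 (PIGX) over the 23 genes, with a median of 0.01, and 0 were called lower or higher by the exact rank-sum test after adjustment. At an unadjusted p under 0.05 there were also 0 of 23, where 310 of all 2969 genes (10.4%) were. Background calls were few in this comparison, 0.539% of genes lower and 0.202% higher, so an empty count among 23 genes is near what the library as a whole gave. No GPI anchor gene had a mean ratio 1 log2 unit or more from the control median, against 0.472% of all genes lower and 0.0674% higher by that distance.

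Both extremes came from single guides. PIGX rested on sgPIGX_1 (126, 9 and 154 counts), without which its mean was 0.07, and PIGH on sgPIGH_7 (145, 164 and 10 counts), without which it was 0.02. The lowest unadjusted p was that of PIGL, at -0.28 ± 0.62 with 8 of 10 guides below the control median after scaling (exact rank-sum test, adjusted p = 0.502). For PIGQ the mean was 0.01 ± 1.32, with guides far out on both sides: sgPIGQ_3 had 29 counts in DMSO and 153 in apilimod, and sgPIGQ_10 had 454 and 100. The 95% interval of its shift against control guides, -0.69 to 0.27, leaves room for differences of moderate size either way. The genes called lower in apilimod and not in DMSO (PIGH, PIGL, PIGM, PIGO, PIGT and PIGY) were therefore not shown to differ between those libraries.

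The precursors of the anchor are made and turned over by other enzymes in the library, which serve further pathways besides this one. Of 29 such genes tested, 13 were lower than control guides in DMSO and 16 in apilimod, and 0 were called between apilimod and DMSO, where 7 had an unadjusted p under 0.05. Over all genes these shares were 18.9% and 29.0% lower, and 10.4% at an unadjusted p under 0.05 between the 14-day libraries. Their median score was -0.30 in DMSO and -0.62 in apilimod, beside -0.17 and -0.12 for the 23 GPI anchor genes.

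Among 8 enzymes that make activated mannose, used for N-glycans as well as for GPI, 5 were lower in DMSO and 6 in apilimod. Beside these stood 18.9% and 29.0% of all genes. GMPPB, which makes GDP-mannose, scored -2.85 ± 2.69 and -3.22 ± 3.21 in DMSO and apilimod, and MPI, which makes mannose 6-phosphate, -0.82 ± 0.94 and -1.62 ± 1.28. PMM2, the phosphomannomutase, scored -0.34 ± 0.50 and -1.01 ± 0.71, and DPM3, a subunit of dolichol phosphate mannose synthase, -0.43 ± 0.48 and -0.77 ± 0.51. DPM2, which belongs to that synthase and also associates with the first GPI complex, was lower in DMSO at -0.40 ± 0.54 and was -0.73 ± 2.52 in apilimod without being called. GMPPA (-0.50 ± 0.85) and DPM1 (-0.62 ± 0.98) were lower in apilimod.

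For phosphatidylinositol, 3 of 4 genes were lower in both arms, where 18.9% (DMSO) and 29.0% (apilimod) of all genes were lower. CDIPT, the phosphatidylinositol synthase, scored -3.51 ± 3.38 in DMSO and -2.64 ± 2.19 in apilimod, CDS2, which supplies its CDP-diacylglycerol, -1.20 ± 1.13 and -1.29 ± 0.72, and ISYNA1, the inositol 3-phosphate synthase, -0.39 ± 0.46 and -0.75 ± 0.56. For phosphatidylethanolamine, the donor of ethanolamine phosphate, 3 of 5 were lower in both: PISD at -2.20 ± 2.61 and -2.81 ± 2.70, PCYT2 at -0.76 ± 0.86 and -1.09 ± 0.99, and CEPT1 at -0.64 ± 0.42 and -0.94 ± 0.53.

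Of 7 genes for the making and turnover of UDP-GlcNAc, the sugar donor of the first step, 1 was lower in DMSO and 3 in apilimod. In the library as a whole, 18.9% of genes were lower in DMSO and 29.0% in apilimod. PGM3 scored -1.41 ± 1.21 and -1.86 ± 1.67, whereas GFPT1 (-1.09 ± 0.92) and UAP1L1 (-0.30 ± 0.60) were called in apilimod alone. Of 5 genes for alkyl lipids, which GPI anchors carry, DHRS7B was lower in both arms, at -1.28 ± 0.67 and -0.81 ± 0.78. In DMSO, CDIPT, GMPPB, PISD, PGM3, DHRS7B and CDS2 had scores below that of PIGQ, the lowest gene of the anchor pathway itself, though the differences between these genes were not tested.

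Clients of the pathway were also examined. Of 14 enzymes and receptors in the library that are themselves GPI-anchored, among them the folate receptors FOLR1 and FOLR2 and the ectonucleotidase NT5E, 0 were called in DMSO, in apilimod or between them by the exact rank-sum test. Over all genes, 18.9% were called lower in DMSO and 29.0% in apilimod. At an unadjusted p under 0.05 there were 5 of 14 in DMSO, 5 in apilimod and 0 between the libraries, where 29.7%, 40.1% and 10.4% of all genes were. Their scores ran from -0.36 to 0.28 in DMSO and from -0.20 to 0.32 in apilimod.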

How the data were processed

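Guides were counted by the authors, who trimmed reads with cutadapt (4.1), aligned them with Bowtie2 (2.4.5) and tallied them with MAGeCK (0.5.9.5), as named in the study's methods and the submitters' processing notes. The deposited values are raw counts per guide and library, not normalized. The series table and the per-sample files did not differ in any count. The members and gene lists were chosen with earlier results of these data known.

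Here, 1 count was added to each guide, counts were divided by the library total, and log2 ratios were taken. Guides with fewer than 100 initial counts and genes with fewer than 6 guides were left out, leaving 2969 genes, 28042 guides and 487 of 499 control guides. A gene's guides were compared with control guides by a two-sided exact rank-sum test, with Benjamini-Hochberg adjustment over all genes. The fold rule required a score at least 1 log2 unit from the control median. For apilimod against DMSO the rank test used the difference between the arms after each was scaled so that 27 nucleotide synthesis genes had a median of -1 relative to the control median (the study's reference list is not used here), and the fold rule used the unscaled ratio. Every gene found by the rule is named, in order of biosynthetic step, with guide counts where it was called in any comparison, and called genes of the supply lists are named. PIGB, PIGX, PGAP1 and GPLD1 guides were added after their values were seen. The alternatives were other count minima, guide minima, pseudocounts and medians, other nulls and other scalings. The test was checked on simulated data in which unchanged guides drifted as the control guides did. That check cannot show how calls behave where gene-targeting guides lie below the control guides, as they mostly did here. Gene positions are from GENCODE v44. Analyses used Python 3.11.15, numpy 2.4.6, pandas 2.3.3 and scipy 1.17.1.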

Additional observations from a re-analysis of the deposited data

How the results depend on the processing

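The count of GPI anchor genes called depended most on the null. With all gene-targeting guides as the null, 1 of 23 was called in DMSO in place of 5, and 0 of 23 in apilimod in place of 10, while the whole table fell from 585 to 272 called genes in DMSO (222 lower, 50 higher) and from 869 to 307 in apilimod (225 lower, 82 higher). With a minimum of 300 initial counts, 6 of 23 GPI anchor genes were called in apilimod (PIGL, PIGM, PIGQ, PIGS, PIGW and PIGY). PIGY was also called in DMSO (exact rank-sum test, adjusted p = 0.0433), which made 6 of 23 in that arm. Under that minimum, 763 of the 2778 genes tested were lower in apilimod and 511 in DMSO, with 13 and 21 higher. PIGO lost its apilimod call with deeper control guides too (exact rank-sum test, adjusted p = 0.0563). For apilimod against DMSO, 0 GPI anchor genes were called under each alternative tried, although the whole table moved from 22 calls to 42 with a minimum of 30 counts, 40 with no minimum, 13 with all gene-targeting guides as the null and 37 with no scaling. In an arm where a GPI anchor gene was called, its score did not change sign under any alternative. Elsewhere signs could change, as for PIGT in DMSO, where it was not called and ran from -0.25 to 0.0025. Counts of 8 to 10 guides of 1 library limit these calls, and no replicate could be left out. No paired analysis was possible because each group had 1 library and the labels carry no replicate numbers.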
